A study of Mus musculus with 12 samples.

Results

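The 8 genes described are 7 genes of antigen presentation by major histocompatibility complex (MHC) class I and the ubiquitin-like modifier gene Ubd, measured by RNA sequencing in mouse liver and liver tumors. They are H2-K1, H2-D1, B2m, Tap1, Tap2, Tapbp, Nlrc5 and Ubd. They were found by symbol in the deposited tables, which list 24553 entries per library, and where a symbol named several entries the one with the highest mean was taken. All 8 were found, and all 8 were among the 11671 entries that reached a value of 1 in at least 3 of the 12 libraries and were tested. 2 entries bear the name Tapbp, and H2-D1 shares its entry with H2-L. The 12 libraries fall into 4 groups of 3. KO tumors and WT tumors are liver tumors of mice labelled Setd2 knockout or wild type, which received diethylnitrosamine (DEN), a liver carcinogen, as a single injection of 25 mg/kg at 2 weeks of age and were killed after 8 months. KO livers and WT livers are normal liver of male mice of the same genotypes, aged 8 months, that received no DEN. Tumor and DEN exposure therefore cannot be told apart in comparisons of tumors with normal liver, or in the difference of KO effects. Setd2 encodes the enzyme that trimethylates lysine 36 of histone H3. The titles write cKO, but the labels say nothing of which exons were deleted or in which cells, and they give no strain. Nor do they say whether the 12 libraries are from 12 animals, so p-values measure the spread between these libraries.

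MHC class I molecules show fragments of a cell's own proteins to CD8 T cells. H2-K1 and H2-D1 encode the classical heavy chains, and B2m encodes beta-2-microglobulin, the light chain that every class I molecule needs. Tap1 and Tap2 form the pump that moves peptides into the endoplasmic reticulum, and Tapbp encodes tapasin, which holds empty class I molecules at that pump. Nlrc5 encodes the transactivator that assembles on class I gene promoters. Ubd encodes FAT10, a ubiquitin-like protein that marks other proteins for the proteasome, is induced by interferon gamma and tumor necrosis factor, and is known to be abundant in liver cancer. Its gene lies in the same chromosomal region as the class I genes.

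Of these genes, 6 lie on chromosome 17 (GRCm38, GENCODE vM21 spans). Tapbp spans bases 33915899 to 33929292 on the plus strand, H2-K1 33996017 to 34000347 on the minus strand, and Tap1 34187553 to 34197225 on the plus strand. Tap2 spans 34203527 to 34216321, H2-D1 35262730 to 35267499 and Ubd 37193892 to 37196095, each on the plus strand. B2m lies on chromosome 2 (122147686 to 122153083) and Nlrc5 on chromosome 8 (94434356 to 94527272), both on the plus strand. The library kit was non-directional, per the labels' protocols, so reads from overlapping genes of opposite strands cannot be told apart. Tap1 overlaps Psmb9, Tap2 overlaps Gm15821 and Gm20496, Tapbp overlaps Gm19412, B2m overlaps Patl2 and Nlrc5 overlaps 9330175E14Rik in this way, and Tapbp also overlaps Zbtb22 on its own strand. Of the 50-base words in a transcript, the share found also in transcripts of other genes was 21.0% for Tapbp (mostly Gm19412), 14.3% for H2-D1 (mostly H2-Q1), 12.6% for Tap2, 8.79% for H2-K1 (mostly H2-D1) and 6.47% for Tap1 (mostly Psmb9). It was 0% for B2m, Nlrc5 and Ubd.

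Promoters are shown for 4 genes, because the values below set H2-D1 against H2-K1, and Tapbp and Ubd against both. The RefSeq table of promoters (GRCm38.p6, 250 bases before to 50 after a gene's start) held 6 of the 8 genes. The sequences lie at chr17:34000298-34000597 (minus strand) for H2-K1, the first of 2 windows given, chr17:35262844-35263143 (plus strand) for H2-D1, chr17:33919228-33919527 (plus strand) for Tapbp and chr17:37193642-37193941 (plus strand) for Ubd. Capitals mark matches on either strand to the interferon regulatory factor (IRF) element GAANNGAAA, the CCAAT box, or the kappaB motif bound by NF-kB. No match to the fourth motif searched, the gamma-activated site TTCNNNGAA, fell in any of them.
H2-K1: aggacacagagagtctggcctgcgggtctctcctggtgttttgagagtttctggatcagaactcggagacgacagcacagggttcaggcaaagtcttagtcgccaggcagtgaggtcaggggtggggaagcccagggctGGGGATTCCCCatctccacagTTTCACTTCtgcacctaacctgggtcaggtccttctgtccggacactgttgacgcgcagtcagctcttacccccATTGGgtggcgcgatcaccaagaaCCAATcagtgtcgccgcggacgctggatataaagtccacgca
H2-D1: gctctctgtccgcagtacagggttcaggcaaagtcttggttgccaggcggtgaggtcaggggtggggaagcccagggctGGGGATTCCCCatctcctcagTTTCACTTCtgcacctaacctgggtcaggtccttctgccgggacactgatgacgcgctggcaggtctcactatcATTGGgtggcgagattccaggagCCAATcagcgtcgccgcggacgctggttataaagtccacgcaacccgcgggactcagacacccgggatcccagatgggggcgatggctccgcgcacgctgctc
Tapbp: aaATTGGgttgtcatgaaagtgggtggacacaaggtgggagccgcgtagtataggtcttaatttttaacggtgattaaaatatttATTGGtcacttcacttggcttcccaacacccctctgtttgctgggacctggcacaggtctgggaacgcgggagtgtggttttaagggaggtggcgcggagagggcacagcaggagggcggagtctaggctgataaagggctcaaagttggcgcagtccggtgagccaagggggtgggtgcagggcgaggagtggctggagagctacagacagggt
Ubd: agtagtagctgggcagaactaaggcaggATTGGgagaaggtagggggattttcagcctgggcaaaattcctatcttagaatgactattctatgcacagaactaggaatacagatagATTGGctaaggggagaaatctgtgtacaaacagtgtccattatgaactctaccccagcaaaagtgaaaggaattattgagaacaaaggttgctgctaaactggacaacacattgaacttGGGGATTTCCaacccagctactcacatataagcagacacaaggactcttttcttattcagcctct
H2-K1 and H2-D1 carry the same arrangement of a pair of overlapping kappaB matches followed by an IRF element, which begin 111 and 90 bases before the start of H2-K1 and 171 and 150 bases before the start of H2-D1. Both also hold 2 CCAAT boxes after the IRF element. They lie 76 and 53 bases before the start of H2-D1, and 16 bases before and 8 bases after the start of H2-K1. The Ubd window holds a kappaB match 15 bases before the start and CCAAT boxes at 222 and 134 bases. It holds no match to GAANNGAAA, the only form of the IRF element searched. It does hold aaagtgaaa, which departs from that form in its first letter only, so the search does not show that an IRF element is absent. Of the motifs as searched, the Tapbp window holds CCAAT boxes only, at 248 and 165 bases. Of 32851 mouse promoters of this length, 7.52% hold the IRF element, 8.30% the gamma-activated site, 8.46% a kappaB match and 37.4% a CCAAT box. A match describes letters only and shows no binding.

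The values are FPKM, fragments divided by transcript length and by the library's mapped total, so levels can be compared between genes of different length. Sequencing depth is unknown, and libraries had FPKM sums of 423498 to 719538. Setd2 itself stood at 3.14, 2.18 and 1.90 FPKM in KO tumors, 4.40, 3.61 and 4.07 in WT tumors, 1.66, 1.93 and 1.32 in KO livers and 4.84, 3.84 and 4.70 in WT livers. Every KO library lay below every WT library of its tissue, and the difference passed the test in normal liver only (log2 fold change -1.05 ± 0.14 SE, adjusted p = 0.0108). In tumors it was -0.57 ± 0.19 (adjusted p = 0.188). Hepatocyte markers were high in every library, with Apoa1 at 5458 FPKM or more and Ttr at 1397 or more. Hepatocyte sums leave out Alb (serum albumin), which has a value of 0 in 11 libraries. In tests below, changes are differences in log2(FPKM + 1) ± SE from limma, and a gene was called, or said to rise or fall, at an adjusted p below 0.05. Adding 1 shrinks the changes of genes with low FPKM.

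The class I genes and Ubd stood highest in KO tumors. The mean of each of the 8 genes was highest there, and in 7 of them every KO tumor exceeded every WT tumor, as in 13.8% of all tested entries. Spread among the 3 KO tumors was wide for Tap1, Tap2, Tapbp and Ubd, and narrow for B2m (SD 97.3 FPKM, against 357 in WT tumors). None of the 8 passed the test between KO and WT tumors, where 0.0343% of all entries were called higher. Within KO mice, 5 of the 8 were called higher in tumors than in normal liver (9.09% of all entries), and within WT mice 1 of 8 was (8.01% of all entries). In normal liver none of the 8 was called between KO and WT, where 9.33% of all entries were called higher. For 1 gene, Tapbp, the effect of the knockout in tumors was called larger than that in normal liver (1.15% of all entries). The plot of FPKM by library shows the values behind these counts.

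**Figure D1:**
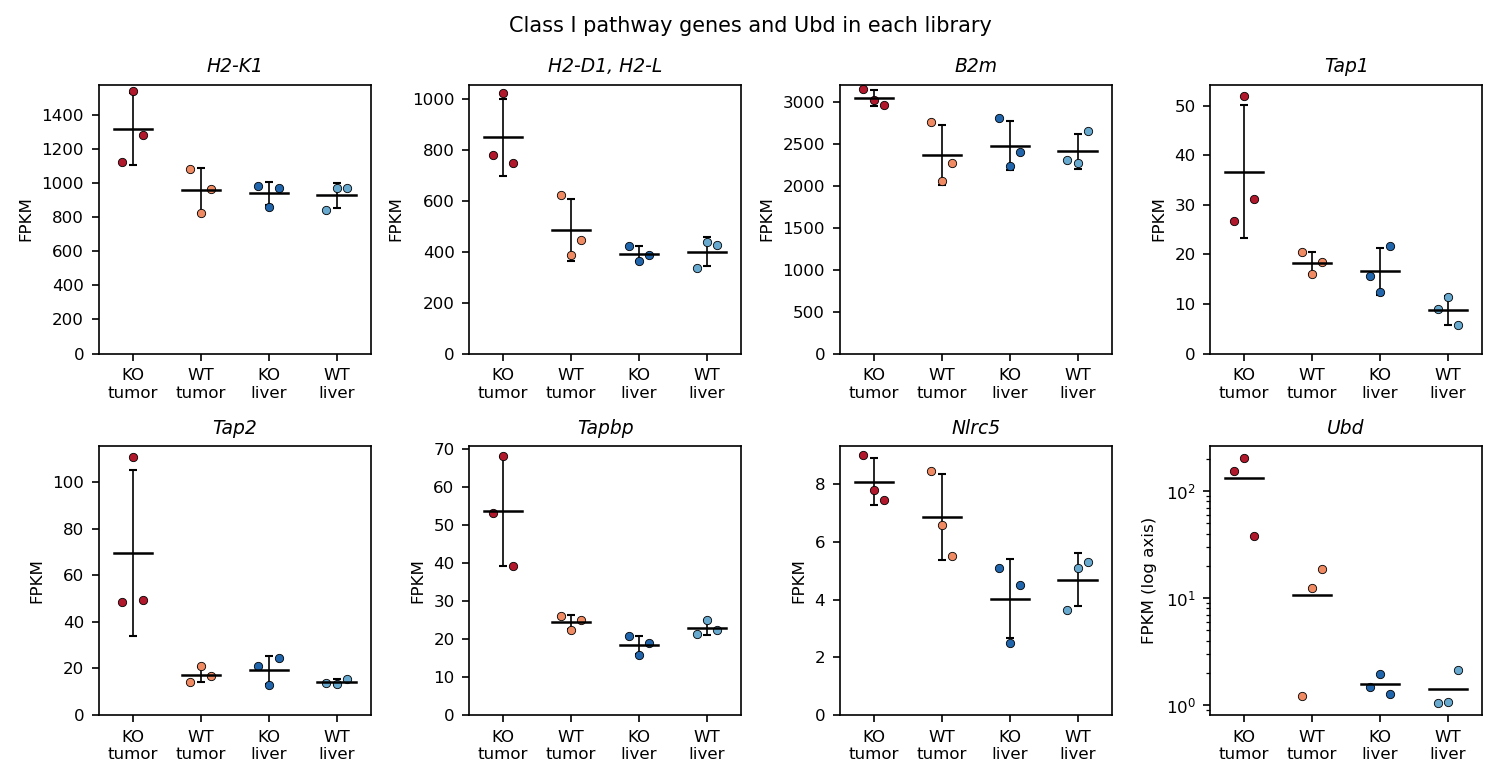
FPKM of the 8 genes in each library (points; bars are group means, and whiskers are the SD of n = 3, not drawn for Ubd), with KO tumors, WT tumors, KO livers and WT livers from left to right and a log axis for Ubd. The mean of KO tumors is the highest in every panel, with single KO and WT tumors overlapping for Nlrc5, and Ubd spans from about 1 FPKM in WT livers to 203 FPKM in KO tumor 2.

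B2m was the most abundant of the 8 genes in every group, followed by H2-K1 and H2-D1. B2m stood at 3151, 3019 and 2961 FPKM in KO tumors, 2757, 2062 and 2269.9 in WT tumors, 2808, 2234 and 2399.6 in KO livers and 2314, 2274 and 2649 in WT livers. The KO tumors lay above all other libraries, and the other 3 groups overlapped. The change between KO and WT tumors was 0.38 ± 0.30 (adjusted p = 0.567) and that between KO tumors and KO livers 0.30 ± 0.29 (adjusted p = 0.493).

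H2-K1 stood at 1123, 1543 and 1284 FPKM in KO tumors, 1084, 823 and 968 in WT tumors, 984, 861 and 973 in KO livers and 844, 973 and 972 in WT livers. Again the KO tumors lay above the rest, while WT tumors and both kinds of liver overlapped. The change was 0.45 ± 0.27 between KO and WT tumors (adjusted p = 0.446) and 0.48 ± 0.26 between KO tumors and KO livers (adjusted p = 0.242). The second value grew to 0.91 with TPM scaling (adjusted p = 0.0339), which moved the median of all entries to 0.36, and to 1.13 with quantile normalization (adjusted p = 0.0415), and was then called. In normal liver KO and WT differed by 0.02 ± 0.12, with a 95% confidence interval of -0.28 to 0.31.

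H2-D1, in the entry it shares with H2-L, stood at 779.6, 1023 and 747 FPKM in KO tumors, 624, 388 and 446 in WT tumors, 423, 364 and 387 in KO livers and 337, 437 and 428 in WT livers. It rose in KO tumors relative to KO livers by 1.11 ± 0.24 (adjusted p = 0.0296), a ratio of means of 2.17. Between KO and WT tumors it differed by 0.82 ± 0.29 (adjusted p = 0.212), with groups that did not overlap. WT tumors and WT livers overlapped (0.26 ± 0.21, adjusted p = 0.420).

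The 2 heavy chains did not keep one proportion. The ratio of H2-D1 to H2-K1 was 0.694, 0.663 and 0.582 in KO tumors, 0.576, 0.471 and 0.461 in WT tumors, 0.430, 0.423 and 0.398 in KO livers and 0.399, 0.450 and 0.441 in WT livers. H2-D1 stood below H2-K1 in every library, and least so in KO tumors. The ratio was not tested, and reads shared between class I genes enter both entries.

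Tap1 stood at 26.8, 52.0 and 31.3 FPKM in KO tumors, 20.4, 15.99 and 18.6 in WT tumors, 15.6, 12.5 and 21.7 in KO livers and 8.98, 11.4 and 5.66 in WT livers. WT livers lay below all other groups. Tap1 rose in WT tumors relative to WT livers by 1.03 ± 0.23 (adjusted p = 0.0272). Between KO and WT the change was 0.91 ± 0.27 in tumors (adjusted p = 0.161) and 0.87 ± 0.27 in normal liver (adjusted p = 0.0658), and these effects differed by 0.04 ± 0.41, with a 95% confidence interval of -0.85 to 0.94. Tap1 was 1.08 ± 0.30 higher in KO tumors than in KO livers (adjusted p = 0.0558), and was called with TPM scaling, quantile normalization or all 12 libraries in one fit, with adjusted p between 0.0159 and 0.0415.

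Tap2, its partner in the pump, followed another pattern. It stood at 48.7, 111 and 49.4 FPKM in KO tumors, 14.3, 21.0 and 16.8 in WT tumors, 21.0, 12.8 and 24.6 in KO livers and 13.7, 13.3 and 15.5 in WT livers. KO tumors stood above every other library, and the other 3 groups overlapped. It rose in KO tumors relative to KO livers by 1.72 ± 0.38 (adjusted p = 0.0300). Between KO and WT tumors it differed by 1.85 ± 0.35, a ratio of means of 4.001 (adjusted p = 0.0826), and WT tumors and WT livers differed by 0.26 ± 0.16 (adjusted p = 0.271). The KO effect was 1.46 ± 0.44 larger in tumors than in normal liver (adjusted p = 0.0945).

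Tapbp stood at 53.2, 68.1 and 39.3 FPKM in KO tumors, 26.0, 22.3 and 25.0 in WT tumors, 20.6, 15.8 and 18.8 in KO livers and 21.2, 25.1 and 22.4 in WT livers. KO tumors lay above all other libraries and KO livers below all WT livers. It rose in KO tumors relative to KO livers by 1.46 ± 0.24 (adjusted p = 0.0147), and WT tumors and WT livers differed by 0.09 ± 0.12 (adjusted p = 0.618). The KO effect was 1.07 ± 0.23 in tumors (adjusted p = 0.0995) and -0.30 ± 0.13 in normal liver (adjusted p = 0.146), and the difference of 1.37 ± 0.27 between them passed the test (adjusted p = 0.0357).

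The second entry named Tapbp did not show that difference. It stood at 24.2, 59.8 and 40.5 FPKM in KO tumors, 11.3, 21.2 and 19.1 in WT tumors, 16.4, 15.4 and 31.8 in KO livers and 8.38, 10.5 and 8.496 in WT livers. Its KO effect was 1.18 ± 0.37 in tumors (adjusted p = 0.180) and 1.06 ± 0.27 in normal liver, where it was called (adjusted p = 0.0387). The KO effects differed by 0.11 ± 0.49 (adjusted p = 0.920). The tables give no position for either entry. With both entries summed, the difference of KO effects for Tapbp was 0.86 and lost its call (adjusted p = 0.139), and the KO effect in normal liver was 0.27 in place of -0.30.

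Nlrc5 was the least abundant of the 8 genes in tumors of both genotypes. It stood at 9.01, 7.79 and 7.47 FPKM in KO tumors, 8.48, 6.59 and 5.53 in WT tumors, 5.10, 2.497 and 4.51 in KO livers and 3.63, 5.10 and 5.32 in WT livers. Tumors of either genotype lay above every liver, and KO and WT overlapped in both tissues. Nlrc5 rose in KO tumors relative to KO livers by 0.89 ± 0.23 (adjusted p = 0.0480). The change in WT tumors relative to WT livers was 0.46 ± 0.19 (adjusted p = 0.130), and that between KO and WT tumors 0.22 ± 0.19 (adjusted p = 0.584).

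Ubd varied most. It stood at 154, 203 and 38.1 FPKM in KO tumors, 1.199, 12.3 and 18.6 in WT tumors, 1.48, 1.93 and 1.27 in KO livers and 1.05, 1.07 and 2.099 in WT livers. KO tumors lay above all other libraries, although KO tumor 3 stood much closer to WT tumors 2 and 3 than to the other KO tumors. WT tumor 1 lay within the range of normal liver. Ubd rose in KO tumors relative to KO livers by 5.40 ± 0.57, a ratio of means of 84.4 (adjusted p = 0.00698). It averaged 132 ± 84.5 FPKM in KO tumors and 10.7 ± 8.79 in WT tumors (SD, n = 3 each), a log2 change of 3.69 ± 0.94 (adjusted p = 0.128). WT tumors and WT livers differed by 1.81 ± 0.75 (adjusted p = 0.134). The KO effect was 3.58 ± 1.06 larger in tumors than in normal liver (adjusted p = 0.0879), where it was 0.11 ± 0.19. By mean FPKM Ubd ranked above Tap1, Tap2, Tapbp and Nlrc5 in KO tumors, and below all of them in KO and WT livers.

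**Figure D2:**
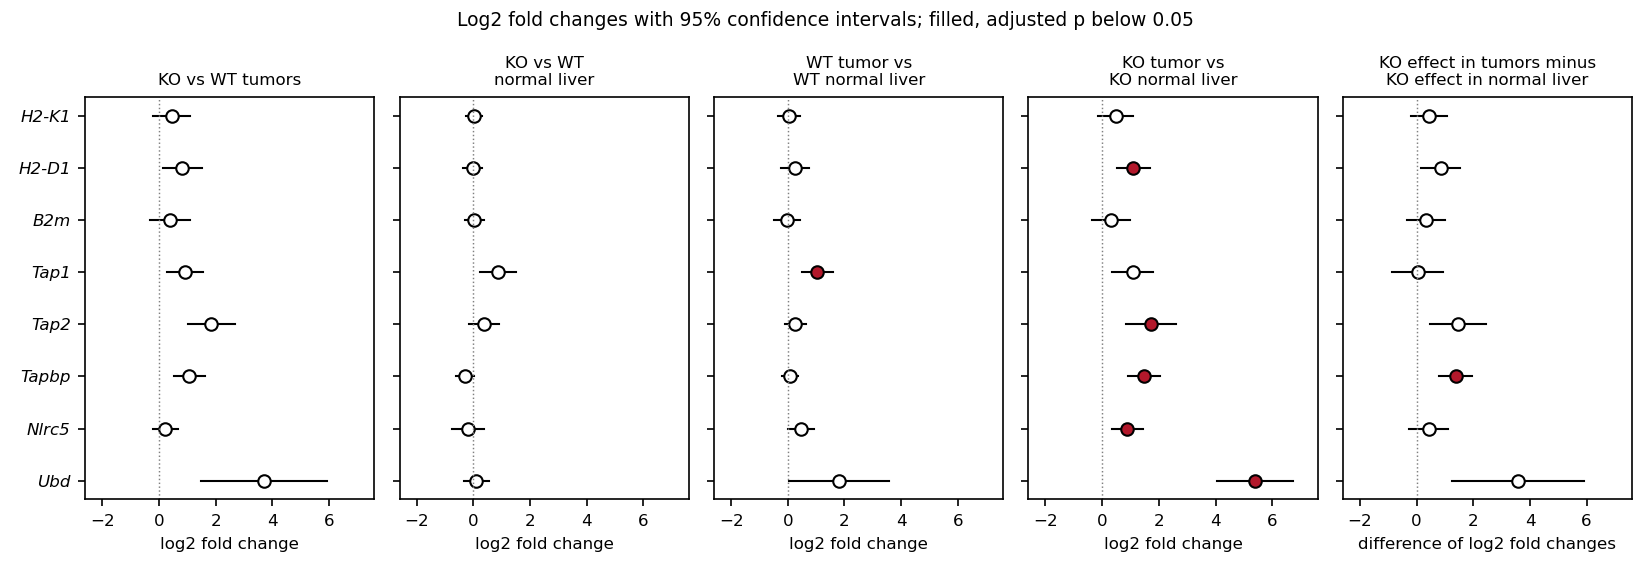
Log2 fold change of each gene (circles) with its 95% confidence interval (lines) in the 4 comparisons of 2 groups, and the difference between the KO effects in tumors and in normal liver in the right panel, with filled circles at an adjusted p below 0.05. Filled circles appear for 5 genes between KO tumors and KO livers, for Tap1 between WT tumors and WT livers and for Tapbp in the right panel, and the interval of Ubd is the widest in each panel that involves tumors.

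The comparison of KO with WT tumors asks what the loss of Setd2 changes in DEN tumors. None of the 8 genes was called, against 0.0343% of all tested entries called higher, 4 of 11671. At an unadjusted p below 0.05, 5 of the 8 were higher (H2-D1, Tap1, Tap2, Tapbp and Ubd), against 10.9% of all entries. In 7 of the 8, all KO tumors exceeded all WT tumors, a separation shown by 13.8% of all entries. Nlrc5 was the exception. The median log2 change of the 8 genes was 0.87 and that of all entries 0.02. When all 12 libraries entered one fit with a shared spread, H2-D1 (adjusted p = 0.0431), Tap2 (0.00812), Tapbp (0.00921) and Ubd (0.0157) were called, with 1017 entries called in either direction in that fit and 9 in the fit of the 6 tumors. KO tumor 3 had the lowest Tapbp, Ubd and H2-D1 of the KO tumors, and without it 1 gene, Tapbp, was called (1.27, adjusted p = 0.0428).

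KO livers set against WT livers show what differs without a tumor and without DEN. None of the 8 genes was called, against 9.33% of all entries called higher. Tap1 was higher at an unadjusted p below 0.05, against 19.6% of all entries, and was the gene whose KO livers all exceeded the WT livers, against 21.9% of entries. Tapbp was the gene whose KO livers all lay below the WT livers, and the share of all entries lower in this way was not counted. The median change of the 8 genes was 0.03, as was that of all entries. The 95% confidence intervals of the 3 most abundant genes reached no further than -0.35 (H2-D1) and 0.38 (B2m). Without KO liver 2, 1 gene was called, Tap2 (0.65, adjusted p = 0.0494).

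Within WT mice, the comparison of tumors with normal liver called 1 of the 8 genes, Tap1, against 8.01% of all entries called higher. WT tumors all exceeded WT livers in 2 genes, Tap1 and Nlrc5, against 18.5% of entries, and the median change was 0.26 (-0.04 for all entries). The call of Tap1 was lost without WT tumor 2, WT tumor 3, WT liver 1 or WT liver 3, with a highest adjusted p of 0.0658, and without WT tumor 1, the library with the low Ubd, Ubd was called as well (2.77, adjusted p = 0.00249). Within KO mice, 5 of the 8 genes were called higher in tumors (H2-D1, Tap2, Tapbp, Nlrc5 and Ubd), against 9.09% of all entries. All 8 had KO tumors wholly above KO livers, against 21.3% of entries, and their median change was 1.09 (-0.02 for all entries). Leaving out KO tumor 1 or any of the 3 KO livers kept 1 gene called, Ubd, while without KO tumor 2 there were 3 and without KO tumor 3 there were 4. Nlrc5 lost its call in each of these 6 fits, with a highest adjusted p of 0.125. Over all entries, leaving out one library moved the number called from 1664 to between 129 and 2981. This comparison shares the KO tumors with that of KO with WT tumors, so the values in them are not independent.

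The difference between KO effects, tumors minus normal liver, was called for 1 of the 8 genes, Tapbp, against 1.15% of all entries called higher. All 8 differences were above 0, with a median of 0.64 (0.02 for all entries). The call of Tapbp was lost without KO tumor 1, WT tumor 2, WT tumor 3, KO liver 2, KO liver 3, WT liver 2 or WT liver 3, in turn, with a highest adjusted p of 0.0919. Without KO tumor 3 there were 3 calls, with Tap2 (adjusted p = 0.0439) and Ubd (adjusted p = 0.0215) added.

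Other genes of the pathway were taken from lists. Of all tested entries, 10.9% were higher in KO than in WT tumors at an unadjusted p below 0.05. Called higher were 9.09% in KO tumors relative to KO livers and 8.01% in WT tumors relative to WT livers. In KO livers relative to WT livers 9.33% were. Called lower were 1024 of 11671 entries in KO livers relative to WT livers, and 1046 in WT tumors relative to WT livers. In KO tumors relative to KO livers 603 were. Between KO and WT tumors, 17.6% of all entries had an unadjusted p below 0.05 in either direction. Among other class I heavy chains, 17 entries were tested beside the 8 genes, and 0 were called between KO and WT tumors (6 were higher and 3 lower at an unadjusted p below 0.05). Their median was 0.55. The entry of H2-T22 and H2-T9 stood at 159.5, 170.5 and 139 FPKM in KO tumors and 89.5, 63.7 and 68.6 in WT tumors (1.08 ± 0.21, adjusted p = 0.0844). H2-Q4 stood at 78.0, 104 and 63.5 FPKM in KO tumors and 53.4, 30.1 and 33.0 in WT tumors (1.07 ± 0.29, adjusted p = 0.139). H2-Q10, a heavy chain that hepatocytes secrete, ran the other way, at 394, 773 and 1191 FPKM in KO tumors and 1344, 1315 and 1842 in WT tumors (-1.06 ± 0.44, adjusted p = 0.279). Within KO mice, 7 of the 17 were called higher in tumors and 0 lower, among them H2-Q4 (1.56), H2-T10 (1.22), H2-M3 (1.23), which presents bacterial formylated peptides, and H2-Q7 (0.93). Within WT mice, 3 were called higher (H2-Q7, H2-Q8 and Mr1) and 3 lower (Cd1d1, Hfe and Fcgrt). In normal liver 1 was called higher in KO, H2-T23 (0.59 ± 0.12, adjusted p = 0.0240), the Qa-1 gene, which stood at 208, 164 and 179 FPKM in KO livers and 115, 123 and 126 in WT livers.

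Proteasomes cut the peptides that the pump carries. The list of 8 proteasome genes tested holds the immunoproteasome subunits Psmb8, Psmb9 and Psmb10, the activator subunits Psme1 and Psme2, and Psmb5, Psmb6 and Psmb7, the constitutive subunits that the immunoproteasome subunits replace. Between KO and WT tumors 0 were called and the median was 0.63, and Psmb8, Psmb9, Psmb10 and Psme1 were higher at an unadjusted p below 0.05. The constitutive subunits differed by 0.38 (Psmb5, adjusted p = 0.465), 0.14 (Psmb6, 0.790) and 0.04 (Psmb7, 0.934). Psmb8, which lies between Tap1 and Tap2, stood at 139, 326 and 129 FPKM in KO tumors and 33.8, 45.1 and 39.6 in WT tumors (2.17 ± 0.37, adjusted p = 0.0734). Psmb9, which overlaps Tap1, stood at 63.5, 212 and 61.4 FPKM in KO tumors and 27.5, 22.5 and 26.1 in WT tumors (1.85 ± 0.47, adjusted p = 0.128). KO tumor 2 was the highest of the KO tumors for both genes, as it was for Tap1 and Tap2. In normal liver Psmb8 (0.78 ± 0.18, adjusted p = 0.0320) and Psmb9 (0.99 ± 0.20, adjusted p = 0.0230) rose in KO relative to WT.

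Another 7 genes that act in peptide trimming, entry and loading were tested. They are the chaperones Calr and Canx, Pdia3, the aminopeptidases Erap1 and Lnpep, the tapasin relative Tapbpl and the translocon subunit Sec61b. Of these 7, 0 were called between KO and WT tumors, with 0 at an unadjusted p below 0.05 and a median of -0.16, and 0 were called between KO tumors and KO livers (1 was higher and 1 lower at an unadjusted p below 0.05), with a median of -0.03. Calr, the gene of calreticulin, stood at 416, 422 and 360.2 FPKM in KO tumors and 371, 562 and 542 in WT tumors (-0.28, adjusted p = 0.615). Pdia3, the gene of the oxidoreductase ERp57 bound to tapasin, fell in KO livers relative to WT livers by 0.69 ± 0.19 (adjusted p = 0.0474). In tumors it stood at 244, 206 and 159 FPKM in KO and 259, 301 and 281 in WT (-0.48, adjusted p = 0.344).

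Differences of the tested factors of class I promoters were small between KO and WT tumors. Of 13 tested, 0 were called, 0 were higher and 1 was lower at an unadjusted p below 0.05, and the median was 0.06. The lower one was Nfyb, a subunit of the factor that binds CCAAT boxes (-0.51 ± 0.16, adjusted p = 0.182). Irf1 stood at 22.96, 26.2 and 15.2 FPKM in KO tumors and 18.2, 12.7 and 15.5 in WT tumors (0.43 ± 0.25, adjusted p = 0.424). Ciita, also in this list, was too low to test. It stood at 1.45, 1.77 and 0.597 FPKM in KO tumors and 0.422, 0.445 and 0.550 in WT tumors, without overlap. In normal liver Nfkb1, a subunit of NF-kB, fell in KO relative to WT by 1.01 ± 0.24 (adjusted p = 0.0320) and Nfyb by 0.72 ± 0.18 (adjusted p = 0.0367). The partners of FAT10 showed 0 calls among 7 tested between KO and WT tumors, with 0 at an unadjusted p below 0.05 and a median of 0.10. Among them Uba6, whose product activates FAT10, stood at 1.52, 0.915 and 0.591 FPKM in KO tumors and 1.02, 1.10 and 1.55 in WT tumors, and Sqstm1, whose product p62 is a FAT10 substrate, at 245, 447 and 355 in KO tumors and 256, 263 and 335 in WT tumors.

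The interferon gamma signaling list, of which 9 members were tested, held 0 calls between KO and WT tumors and 0 at an unadjusted p below 0.05 (median 0.27). Ifng itself stood at 0.567 FPKM or below in all libraries and was not tested. Ifngr1, a receptor chain, rose in tumors relative to normal liver in KO (1.61 ± 0.26, adjusted p = 0.0147) and in WT (1.51 ± 0.19, adjusted p = 0.00568). For Ifngr2, the other chain, the KO effect was larger in tumors than in normal liver by 1.11 ± 0.25 (adjusted p = 0.0478), with a fall of 0.70 in KO livers relative to WT livers.

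Of 15 interferon gamma-inducible genes tested, 0 were called between KO and WT tumors, 6 were higher and 2 lower at an unadjusted p below 0.05, and the median was 0.61. The differences ran in both directions. The guanylate-binding protein gene Gbp3 stood at 10.4, 5.53 and 6.84 FPKM in KO tumors and 2.13, 1.63 and 2.39 in WT tumors (1.46 ± 0.24, adjusted p = 0.0682). The chemokine gene Cxcl11 stood at 1.497, 1.18 and 1.60 FPKM in KO tumors and 6.45, 4.63 and 4.35 in WT tumors (-1.33 ± 0.19, adjusted p = 0.0512). Their KO effects differed between tumors and normal liver in opposite directions, for Gbp3 by 1.59 (adjusted p = 0.0278) and for Cxcl11 by -1.50 (adjusted p = 0.0357). Within KO mice 6 of the 15 were called higher in tumors (9.09% of all entries), with Cxcl10 at 2.59, Gbp3 at 2.01 and Gbp2 at 1.88.

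Of 15 type I interferon-inducible genes, 12 were higher and 0 lower between KO and WT tumors at an unadjusted p below 0.05, with 0 called and a median of 1.06. In 12 of the 15, KO tumors lay wholly above WT tumors, as in 13.8% of all entries. Isg15, which like Ubd encodes a ubiquitin-like protein, stood at 63.8, 58.0 and 60.04 FPKM in KO tumors and 32.2, 20.3 and 12.7 in WT tumors (1.53 ± 0.32, adjusted p = 0.0917). Xaf1 stood at 8.49, 13.4 and 11.1 FPKM in KO tumors and 4.62, 3.40 and 2.30 in WT tumors (1.45 ± 0.25, adjusted p = 0.0761). Within KO mice 10 of the 15 were called higher in tumors (9.09% of all entries), with Ifi44 at 2.48 and Isg15 at 2.14, and within WT mice 2 were, Ifit2 and Usp18. In normal liver 3 were called higher in KO, Bst2, Usp18 and Oasl1.

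MHC class II genes, the other branch of presentation, differed by more than the class I genes in these samples, a contrast that was not tested. All 8 tested were higher between KO and WT tumors at an unadjusted p below 0.05, 0 were called, and the median was 1.63. H2-Aa stood at 269.96, 437 and 86.3 FPKM in KO tumors and 75.3, 59.6 and 77.2 in WT tumors. All 8 were called higher in KO tumors than in KO livers, against 9.09% of all entries (median of the 8 genes 2.41). In WT tumors relative to WT livers 5 of the 8 were, against 8.01% of all entries (median 1.21). KO tumor 3 was the lowest of the KO tumors for H2-Aa, as it was for Ubd.

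Genes of the cells that read class I were scarce. Of 13 receptor and killing genes 2 reached the level tested, Lag3 and Cd8b1, and neither was called between KO and WT tumors (0 had an unadjusted p below 0.05). Cd8a stood at 0.538, 1.87 and 0.143 FPKM in KO tumors and 0.247, 0.278 and 2.70 in WT tumors, with overlapping groups. The other genes of this list had higher means in KO than in WT tumors. Groups did not overlap for Havcr2 (2.24, 2.54 and 0.776 in KO tumors, 0.489 or less in WT tumors). Nor did they for Gzma (0.631, 2.28 and 0.886 in KO tumors, 0.454 or less in WT tumors). Both were too low to test, and the remaining genes overlapped. Lag3 rose in KO livers relative to WT livers by 0.57 ± 0.16 (adjusted p = 0.0462), at 1.68 FPKM or less. Of the cytokine genes known to raise Ubd, Tnf and Il6 were too low to test. Tnf stood at 7.03, 0.290 and 0.379 FPKM in KO tumors and at 0.415 or less in WT tumors, so 1 library stood apart, KO tumor 1. Il6 is listed at 0 in all libraries except WT tumor 1, at 0.0459 FPKM.

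The tumor necrosis factor and interleukin 6 list had 6 genes tested. Between KO and WT tumors 0 were called, 5 were higher and 0 lower at an unadjusted p below 0.05, and the median was 0.59. Within KO mice 2 were called higher in tumors, Ltb and Tnfaip3 (1.33 ± 0.27, adjusted p = 0.0247). Within WT mice 1 was called higher in tumors, Ltb, and 4 lower, Il6ra (-1.56), Il1b (-1.55), Tnfrsf1a (-1.05) and Nfkbia (-0.75), with a median of -0.90. Of all entries, 8.01% were called higher there and 1046 of 11671 lower. In normal liver 0 were called higher and 2 lower in KO than in WT, Il6ra, a receptor chain for interleukin 6 (-2.19 ± 0.35, adjusted p = 0.0137), and Il1b (-0.83 ± 0.21, adjusted p = 0.0388). In that comparison 9.33% of all entries were called higher and 1024 of 11671 lower.

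Ltb, the gene of the cytokine lymphotoxin beta, stood at 32.1, 48.4 and 30.5 FPKM in KO tumors, 12.2, 8.14 and 3.60 in WT tumors, 1.38, 2.68 and 2.44 in KO livers and 0.363, 1.38 and 0.641 in WT livers. It rose in tumors relative to normal liver in KO (3.58 ± 0.25, adjusted p = 0.00364) and in WT (2.23 ± 0.39, adjusted p = 0.0139), and differed between KO and WT tumors by 2.18 ± 0.40 (adjusted p = 0.0783). For Il1b the KO effect differed between tumors and normal liver by 2.13 ± 0.37 (adjusted p = 0.0275). It was 1.30 ± 0.28 in tumors (adjusted p = 0.102), and in normal liver Il1b fell in KO relative to WT by 0.83 ± 0.21 (adjusted p = 0.0388).

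**Figure D3:**
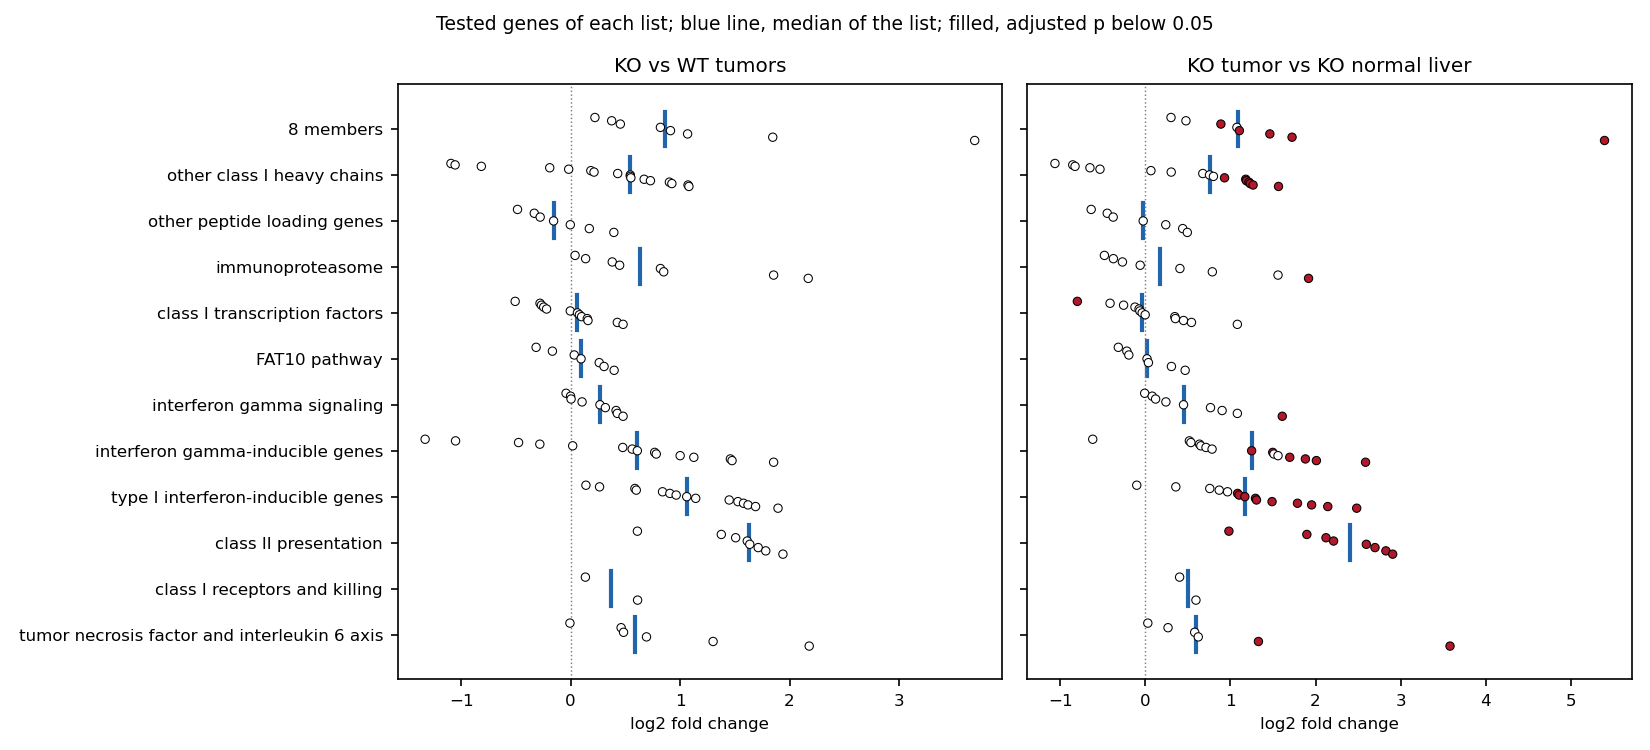
Log2 fold change of each tested gene (circles, filled at an adjusted p below 0.05) in the 8 genes and the 11 lists, with the list median (blue line), between KO and WT tumors (left) and between KO tumors and KO livers (right). The immunoproteasome row also holds 3 constitutive proteasome subunits. No circle is filled in the left panel, and Ubd reaches furthest to the right in both panels, followed in the right panel by Ltb of the last list and by class II genes.

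Markers of some other cell types were higher in KO than in WT tumors, and those of others were not. In bulk tissue, fewer cells of a type and less RNA per cell cannot be told apart. The summed FPKM of 5 leukocyte markers was 115, 156 and 87.1 in KO tumors, 55.1, 34.8 and 55.6 in WT tumors, 32.7, 35.9 and 35.6 in KO livers and 21.6, 41.6 and 25.3 in WT livers. Of these 5, 4 were higher in KO than in WT tumors at an unadjusted p below 0.05, as were 10.9% of all entries. The sum of 14 macrophage and Kupffer cell markers ran from 589 to 813 in KO tumors and from 169 to 474 in WT tumors. Of the 14, 7 were higher at an unadjusted p below 0.05. C1qa, C1qb, C1qc and Lyz2 made up most of the sum. The Kupffer cell marker Clec4f overlapped, at 12.5, 2.55 and 89.7 FPKM in KO tumors and 54.5, 10.5 and 11.8 in WT tumors. Vsig4, Timd4, Marco and Cd163 overlapped as well. Fibroblast and stellate cell markers summed to between 187 and 277 in KO tumors and between 68.9 and 86.7 in WT tumors, with 6 of 9 higher at an unadjusted p below 0.05. Neutrophil markers summed to between 22.6 and 57.4 in KO tumors and between 8.96 and 10.1 in WT tumors. All 4 tested were higher at an unadjusted p below 0.05. Dendritic cell markers summed to between 10.1 and 27.8 in KO tumors and between 5.41 and 6.85 in WT tumors, with 2 of 3 tested higher at that p. None of these markers was called between KO and WT tumors. The sum of B and plasma cell markers ran the other way, at 21.5, 11.7 and 19.8 in KO tumors and 44.7, 28.4 and 63.4 in WT tumors. Jchain made up most of the sum in WT tumors, with means of 9.64 FPKM in KO and 34.9 in WT tumors. Of the 4 tested, 1 was lower and 0 higher at an unadjusted p below 0.05, and 2 were lower without overlap. Cd79b had its higher mean in KO tumors (2.19, against 1.66 in WT tumors). Endothelial markers overlapped, with sums of 79.2 to 139.9 in KO tumors and 81.5 to 132 in WT tumors. T and NK cell markers summed to 8.70, 29.3 and 5.39 in KO tumors and 5.54, 4.43 and 17.1 in WT tumors, with Cd3e at 2.68 FPKM or less and Ncr1 at 0.107 or less in all libraries. Hepatocyte markers without Alb summed to 22987, 23913 and 41471 in KO tumors, 50900.4, 43442 and 49229 in WT tumors, 49502, 48401 and 49957 in KO livers and 45425, 47689 and 46136 in WT livers. Of the 11, 0 were higher and 2 lower in KO than in WT tumors at an unadjusted p below 0.05. In either direction, 17.6% of all entries had such a p. In WT tumors relative to WT livers 1 was called higher and 4 lower (median -0.67). Of all entries, 8.01% were called higher there and 1046 of 11671 lower. Apoa1 averaged 23039 FPKM in WT tumors and 9756 in WT livers, and Cyp2e1 1571 and 4843, so the sum does not follow single markers. KO tumor 3, with the lowest Ubd of the KO tumors, had the hepatocyte sum nearest to WT tumors and the lowest leukocyte sum of the KO tumors. The part of these cell types in the values of the 8 genes was not tested.

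**Figure D4:**
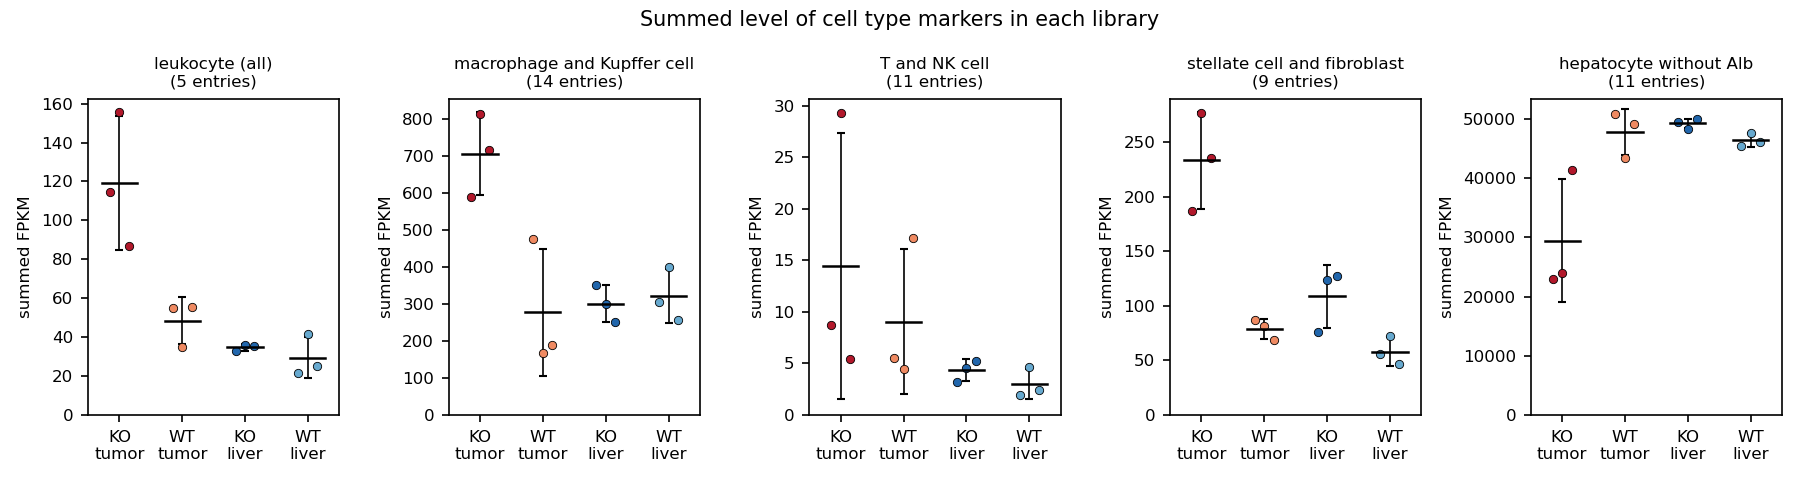
Summed FPKM of markers of 5 cell types in each library (points; bars are group means and whiskers the SD of n = 3), with KO tumors, WT tumors, KO livers and WT livers from left to right. KO tumors stand highest for leukocyte, macrophage and fibroblast markers and lowest for hepatocyte markers, and T and NK cell markers overlap between KO and WT tumors.

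Pairs of the 8 genes had higher correlations over the 12 libraries than within groups, except B2m with Nlrc5 (r of 0.64 over the 12 libraries and 0.71 within groups). Over the 12 libraries, Pearson's r of log2(FPKM + 1) between pairs ran from 0.54 (B2m and Tap1) to 0.94 (H2-K1 and H2-D1). Taken as deviations from group means, H2-K1 and H2-D1 kept an r of 0.88, and H2-D1 with Tapbp one of 0.70. Ubd had r of -0.22 with H2-K1, -0.27 with H2-D1 and -0.39 with B2m within groups, and 0.43 with Tap2. These values describe 12 libraries in 4 groups and share each library's scaling and cell makeup.

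The entries whose pattern was most like the mean of the 8 standardized genes, by Pearson's r over the 12 libraries, were Uba7 (0.98), Gnai2 (0.98), H2-Q4 (0.97), Irf8 (0.97) and the entry of H2-T22 and H2-T9 (0.97). Selplg, Cotl1, C1qtnf6, Ly9 and Lgals3bp followed, each at 0.96 or above. Uba7, whose product activates the ubiquitin-like ISG15, stood at 9.19, 13.5 and 8.73 FPKM in KO tumors, 4.28, 3.47 and 4.16 in WT tumors, 3.28, 2.55 and 4.04 in KO livers and 2.56, 3.04 and 2.75 in WT livers. Selplg, Ly9 and Irf8 are known from leukocytes. The entries most like Ubd alone were Casp12 (0.97), Ddr1 (0.96), Cyp4f18 (0.96), Emp1 (0.96) and the entry of Myl12a and Myl12b (0.96), of which none is among the 10 most like the mean. By Spearman's rho, 3 of those 10 stayed among the first 10 and 0 of the 5 among the first 5.

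**Figure D5:**
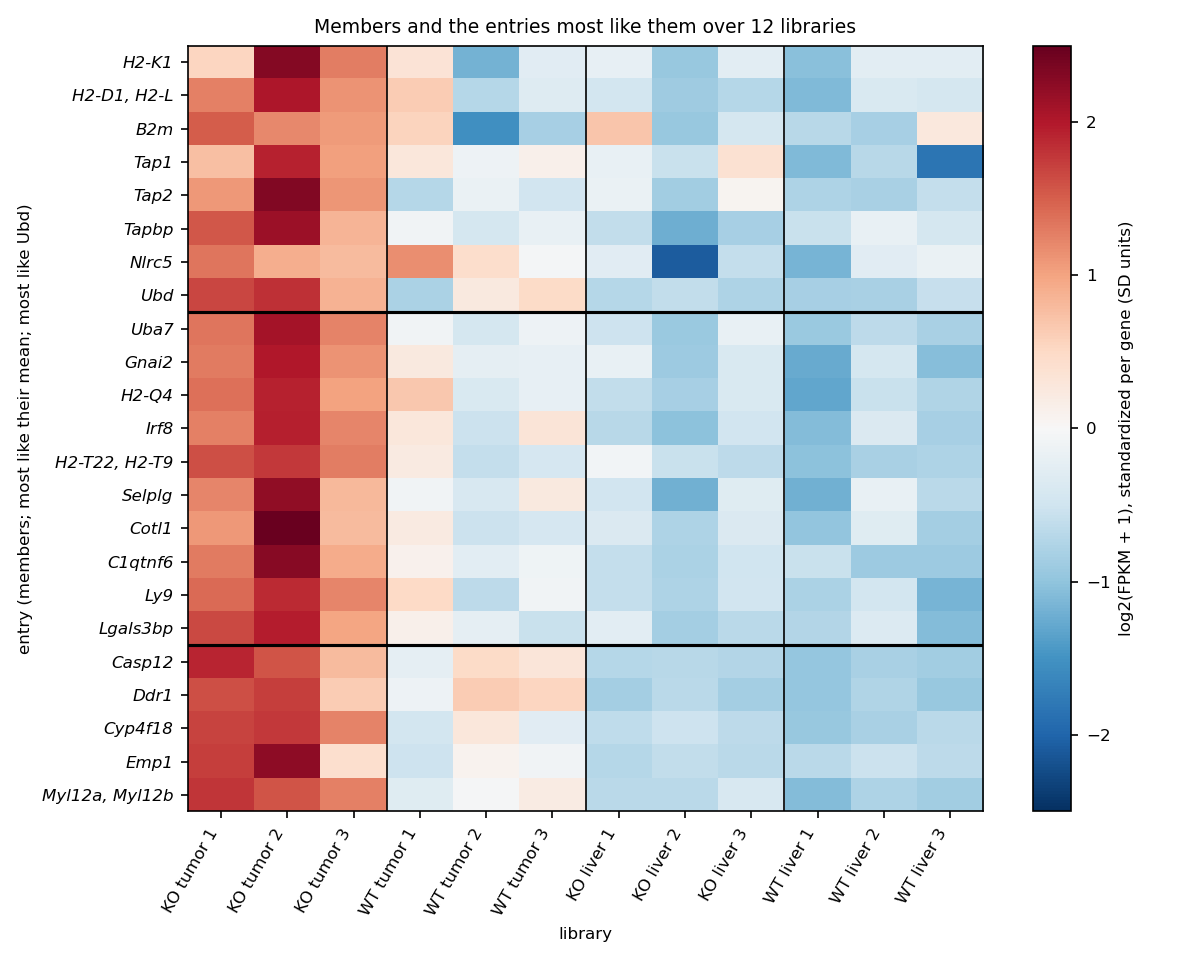
log2(FPKM + 1) of the 8 genes (top), the 10 entries most like their mean (middle) and the 5 most like Ubd (bottom), standardized per gene over the 12 libraries and given in SD units from blue (low) to red (high). KO tumors, the first 3 columns, are above the gene mean in every row, and KO tumor 2 is the highest library for most class I genes.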

How the data were processed

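RNA from 12 mouse samples was sequenced from non-directional poly(A) libraries, as the labels' protocols state. For each library the authors deposited FPKM values in 1 table. The submitters' processing notes name TopHat2 2.1.1, Cufflinks 2.2.1 and the mm10 build, while their options were not given in the sources used here. No counts were used, so depth and counting error are unknown.

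FPKM values were used as deposited. Differences in log2(FPKM + 1) were tested with limma 3.58.1 (R 4.3.3, empirical Bayes with a variance trend, two-sided) on entries with an FPKM of at least 1 in at least 3 of the 12 libraries. Benjamini-Hochberg adjustment ran over the 11671 entries tested, and a call needed an adjusted p below 0.05. Each comparison of 2 groups used its own 6 libraries, and the difference of KO effects used all 12. The code was tested on simulated data. The comparisons share libraries and are not independent of each other.

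The 8 genes and all gene lists were chosen with earlier results of these data known. Named in the text were the 8 genes, Setd2, the called members of each list or a selection of those with the smallest adjusted p, and the entries most like the 8 genes or Ubd. Calr, Irf1, Uba6, Sqstm1, H2-Aa, H2-Q10, H2-T10, H2-M3, Isg15, Cd8a, Il6, Tnf and Ifng, and the hepatocyte sum without Alb, were added or picked out after their values were seen. So were Ciita, Havcr2, Gzma, Cyp2e1, Jchain, Cd79b, the group means of Apoa1 and the single macrophage, Kupffer cell and bile duct markers named. Alternatives were other pseudocounts, filters and scalings, summed entries of one name, 1 fit of all libraries, a replicate block and leaving out each library.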

Additional observations from a re-analysis of the deposited data

Results flagged for a closer look

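The KO effect on Tapbp differed between tumors and normal liver by 1.37 on the log2 scale (SE 0.27, adjusted p = 0.0357, limma), with KO above WT in tumors and below WT in normal liver in every library. It was singled out because the test of the difference itself passed. The call was kept in 10 of 21 alternatives, in which the difference ran from 0.86 to 1.58, and the other entry named Tapbp gave 0.11.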

How the results depend on the processing

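Of the 8 genes, 4 were called between KO and WT tumors with all 12 libraries in one fit, in place of 0, and 1 was called between KO and WT livers with quantile normalization, in place of 0. Between WT tumors and WT livers, 0 were called without a filter on low FPKM, 2 with TPM scaling and 0 with the replicate block, in place of 1. Between KO tumors and KO livers, 2 were called without the filter and 2 with the replicate block, in place of 5. There 7 were called with TPM scaling, 6 with quantile normalization and 6 with all libraries in one fit, and H2-K1 was called in 2, Tap1 in 3 and Nlrc5 in 5 of the 16 alternatives. B2m, 0.30 there, was 0.73 with TPM scaling and 0.88 with quantile normalization, without a call. For the difference of KO effects the count was 0 without the filter, 0 with TPM scaling, 0 with summed entries and 0 with the replicate block, in place of 1. Leaving out each library in turn gave 0 to 1 called between KO and WT tumors, 0 to 1 between KO and WT livers, 0 to 2 between WT tumors and WT livers, 1 to 4 between KO tumors and KO livers and 0 to 3 for the difference of KO effects. Ubd was called between KO tumors and KO livers in all 16 alternatives. Except where a value or the alternative's own construction shows it, the cause was not tested.

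Directions turned only for changes that missed the threshold. Between KO and WT livers, H2-K1 was -0.0091 with median-of-ratios scaling and Tapbp 0.27 with summed entries. Between WT tumors and WT livers, B2m was 0.27 with TPM scaling and 0.43 with quantile normalization. The difference of KO effects for Tap1 was -0.0060 with median-of-ratios scaling. Leaving out libraries gave, between KO and WT livers, -0.052 to 0.078 for H2-K1, -0.15 to 0.041 for H2-D1, -0.055 to 0.11 for B2m and -0.36 to 0.043 for Nlrc5. Between WT tumors and WT livers it gave -0.055 to 0.14 for H2-K1 and -0.15 to 0.056 for B2m, and for the difference of KO effects on Tap1 -0.23 to 0.29. TPM scaling moved the median of all entries to 0.12 between KO and WT tumors, 0.23 between WT tumors and WT livers, 0.36 between KO tumors and KO livers and 0.14 for the difference of KO effects.

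Same-numbered libraries had correlations of deviations from group means between -0.276 and 0.347. Differently numbered libraries were not set against them, so whether the replicate numbers pair the libraries could not be judged. With the replicate block, 0 entries were called between KO and WT tumors, 153 between KO and WT livers, 1235 between WT tumors and WT livers, 1420 between KO tumors and KO livers and 114 for the difference of KO effects, against 9, 2113, 1981, 1664 and 243 without it. Tapbp's difference of KO effects then had an adjusted p of 0.0555.

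With 3 libraries per group and no counts, small changes of the 8 genes could not be resolved, and those of Ubd least, because its values differed severalfold among tumors of one genotype.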

Other observations

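Each library's mean over the 8 standardized genes, in SD units, was 1.21, 1.83 and 1.02 in KO tumors, 0.17, -0.434 and -0.196 in WT tumors, -0.241, -1.02 and -0.394 in KO livers and -0.91, -0.531 and -0.506 in WT livers. The 8 genes together made up 0.824% to 1.26% of the summed FPKM in KO tumors, 0.569% to 0.916% in WT tumors, 0.536% to 0.595% in KO livers and 0.521% to 0.576% in WT livers. Tap2 relative to Tap1 stood at 1.82, 2.13 and 1.58 in KO tumors, 0.700, 1.32 and 0.906 in WT tumors, 1.35, 1.02 and 1.13 in KO livers and 1.53, 1.16 and 2.74 in WT livers. Markers of bile duct cells summed to 563, 3519.5 and 267 FPKM in KO tumors and 63.7, 640.2 and 383 in WT tumors. KO tumor 2, the library highest in H2-K1, H2-D1, Tap1, Tap2, Tapbp and Ubd, also had the highest sum. Most of the sum was Spp1, at 554, 3505 and 254 in KO tumors. Among KO tumors, Krt19 (1.01) and Krt7 (0.403) were lowest in KO tumor 2, while Epcam (1.98) and Sox9 (11.5) were highest there. None of these means, shares, ratios and sums was tested.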
